A study of Mus musculus with 12 samples.

Results

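The regions described here are 292 CpG islands that were methylated in stem cells and in early germ cells alike. They were selected on their measured levels from 13361 autosomal CpG islands with a methylation level in every one of 12 mouse libraries. An island was a member when its level was 20% or more in both E9.5 PGC libraries and in all 4 libraries of undifferentiated stem cells. The levels in those 6 libraries therefore chose the members and are given as a description with no test, whereas the levels in the other 6 libraries took no part in the choice. The assay was RRBS, a form of bisulfite sequencing in which genomic DNA is cut with MspI and treated with bisulfite, so that methylated cytosines remain readable as C, and only fragments of a chosen size are sequenced. A level is the share of CG calls in a region that were methylated, given here as a percentage, and a difference between 2 levels is given in percentage points.

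The study compared 6 groups of 2 libraries each, all labelled with the strain C57BL6. ESC were female embryonic stem cells, and pESC were parthenogenetic embryonic stem cells, whose genome comes from activated oocytes alone. Both kinds of line carried a β-Actin-GFP transgene according to the study's methods. These describe lines maintained in medium with serum and LIF, then kept for several passages in medium with kinase inhibitors and LIF before induction. The methods do not say from which medium the cells of the stem cell libraries came. ESC-PGCLC and pESC-PGCLC were primordial germ cell-like cells made from these lines by 2 days of epiblast-like culture with bFGF and Activin A and 4 days with BMP4, SCF, EGF and LIF. E9.5 PGC and E12.5 PGC were primordial germ cells of female embryos at embryonic days 9.5 and 12.5. The methods describe germ cells and induced cells as sorted with antibodies to CD61 and SSEA1, or to SSEA1 alone for some germ cell preparations. No RNA was measured in these libraries, so the identity of the cells could not be checked against marker genes. Every library was made from the DNA of many cells, and a level between 0 and 100% does not show whether alleles or cells differed.

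CpG islands are short stretches of DNA dense in CG dinucleotides. Most of them lie at gene promoters and stay free of methylation in nearly all tissues. The exceptions include islands inside genes, islands at the starts of germline genes that are silenced in the soma, and imprinted control regions, which carry methylation on the copy inherited from the mother or on that from the father. Primordial germ cells lose most of their methylation as they migrate to and settle in the gonad, imprints included, before new marks are laid down in the oocyte or the sperm precursor. Embryonic stem cells cultured with kinase inhibitors also have low methylation.

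Of the 9 islands shown here in sequence, 4 lie at imprinted genes, and they were the 4 members at which pESC lay furthest above ESC. Sycp3 and Stra8 represent the germline genes. The island nearest to 9330121J05Rik had the highest level of all members in E12.5 PGC. The Pitpnm2 island was among the lowest there, and the Cherp island was called lower in both kinds of PGCLC than in E12.5 PGC. Each sequence is the plus strand of the mouse genome GRCm38 (mm10) and holds up to 300 bases of the island outside annotated untranslated regions. Capitals mark the CG dinucleotides, the kind of site at which methylation was counted. The levels do not show which of the printed sites were read. The stretches lie at chr15:72809681-72809980 (Peg13), chr6:58906724-58906967 (Nap1l5), chr7:128688079-128688378 (Inpp5f), chr2:174297263-174297532 (Nespas), chr10:88459679-88459978 (Sycp3), chr6:34921415-34921714 (Stra8), chr3:62158998-62159297 (9330121J05Rik), chr5:124123525-124123735 (Pitpnm2) and chr8:72462013-72462312 (Cherp).
Peg13: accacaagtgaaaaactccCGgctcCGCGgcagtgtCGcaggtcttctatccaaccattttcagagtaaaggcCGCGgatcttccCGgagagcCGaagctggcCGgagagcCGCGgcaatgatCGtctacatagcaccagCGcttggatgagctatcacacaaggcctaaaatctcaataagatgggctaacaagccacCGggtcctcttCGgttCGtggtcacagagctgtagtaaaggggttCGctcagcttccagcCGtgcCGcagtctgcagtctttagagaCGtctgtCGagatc
Nap1l5: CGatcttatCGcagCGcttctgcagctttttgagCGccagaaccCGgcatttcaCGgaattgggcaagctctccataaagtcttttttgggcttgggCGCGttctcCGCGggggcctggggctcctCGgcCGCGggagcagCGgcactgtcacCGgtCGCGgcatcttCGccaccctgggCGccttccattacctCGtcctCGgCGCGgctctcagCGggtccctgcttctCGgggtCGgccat
Inpp5f: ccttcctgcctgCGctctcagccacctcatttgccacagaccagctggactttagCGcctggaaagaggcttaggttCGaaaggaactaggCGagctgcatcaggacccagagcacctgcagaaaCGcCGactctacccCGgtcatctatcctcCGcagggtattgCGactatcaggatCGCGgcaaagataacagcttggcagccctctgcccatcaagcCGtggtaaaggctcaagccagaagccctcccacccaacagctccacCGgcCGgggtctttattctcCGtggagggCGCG
Nespas: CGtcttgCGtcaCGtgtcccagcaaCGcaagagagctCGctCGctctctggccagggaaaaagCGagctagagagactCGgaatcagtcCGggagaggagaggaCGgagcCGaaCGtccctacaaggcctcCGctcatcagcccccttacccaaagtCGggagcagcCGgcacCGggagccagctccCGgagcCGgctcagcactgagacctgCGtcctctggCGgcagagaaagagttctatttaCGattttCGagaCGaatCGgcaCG
Sycp3: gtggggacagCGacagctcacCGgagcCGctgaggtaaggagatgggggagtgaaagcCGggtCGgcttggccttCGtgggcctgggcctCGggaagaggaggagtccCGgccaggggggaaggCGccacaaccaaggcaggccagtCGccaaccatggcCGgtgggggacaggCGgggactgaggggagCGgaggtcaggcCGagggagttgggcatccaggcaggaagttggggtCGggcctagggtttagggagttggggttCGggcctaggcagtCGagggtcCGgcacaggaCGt
Stra8: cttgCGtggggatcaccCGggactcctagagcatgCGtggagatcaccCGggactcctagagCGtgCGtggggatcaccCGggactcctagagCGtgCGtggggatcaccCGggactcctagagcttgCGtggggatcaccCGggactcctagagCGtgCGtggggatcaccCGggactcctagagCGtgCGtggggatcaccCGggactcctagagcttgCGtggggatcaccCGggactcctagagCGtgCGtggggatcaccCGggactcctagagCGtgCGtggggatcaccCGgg
9330121J05Rik: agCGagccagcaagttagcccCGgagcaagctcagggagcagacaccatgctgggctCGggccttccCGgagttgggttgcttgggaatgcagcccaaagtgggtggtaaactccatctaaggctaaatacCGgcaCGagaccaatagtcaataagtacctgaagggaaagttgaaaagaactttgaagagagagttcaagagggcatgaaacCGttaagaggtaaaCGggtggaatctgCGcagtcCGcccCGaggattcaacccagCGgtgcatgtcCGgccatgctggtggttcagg
Pitpnm2: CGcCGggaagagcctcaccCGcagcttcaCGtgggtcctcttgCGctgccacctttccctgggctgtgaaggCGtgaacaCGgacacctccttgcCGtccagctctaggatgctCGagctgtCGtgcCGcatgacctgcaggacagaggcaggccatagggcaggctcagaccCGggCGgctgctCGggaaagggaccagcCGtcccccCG
Cherp: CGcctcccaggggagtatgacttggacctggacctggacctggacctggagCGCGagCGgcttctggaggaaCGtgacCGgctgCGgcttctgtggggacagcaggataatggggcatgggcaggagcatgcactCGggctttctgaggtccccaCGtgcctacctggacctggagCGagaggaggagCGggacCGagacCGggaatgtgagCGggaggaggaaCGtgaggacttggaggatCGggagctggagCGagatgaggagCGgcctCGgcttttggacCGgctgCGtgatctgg

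The printed stretches hold between 13 and 26 CG dinucleotides. The Stra8 stretch is a tandem repeat, as 97.0% of its bases equal the base 31 positions further on. The letters TGCCGC, which are recognised by ZFP57, a zinc finger protein that protects imprints, occur on either strand 5 times in the whole Peg13 island, 4 times in that of Nap1l5, 6 times in that of Inpp5f and 1 time in that of Nespas. They occur in 6 of the 7 members at genes of the maternal imprint list and in 1 of the 8 at genes of the germline list. Among all members, 22.6% had the letters in the central 300 bases, compared with 32.9% of all autosomal islands, and in the whole island the shares were 24.7% and 53.6%, where islands differ in length. The letters CACGTG, an E-box, were in the central 300 bases of 14.0% of members and of 7.76% of all islands. The share was 14.1% in the second set, 397 islands defined below. In the whole island CACGTG was in 16.8% of members, 20.7% of the second set and 18.5% of all islands. TCCCGC, letters bound by E2F factors, were in the central 300 bases of 23.3% of members and 47.3% of all islands. The second set had TCCCGC in 35.8% and TGCCGC in 28.7% of its central 300-base windows. For islands shorter than 300 bases, 168 of the members, this window ran past the island into flanking bases. A match is a description of the letters alone.

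The member islands lay mostly inside genes rather than at their starts. A coding exon was overlapped by 209 of the 292 members (71.6%), and 33 (11.3%) lay within 2000 bases of a gene start. The remaining members were intronic (21), intergenic (25) or in other exons (4). Among all 13361 islands the order was opposite, with 78.5% at gene starts and 11.2% in coding exons. The second set, the 397 islands at 20% or more in both E9.5 PGC libraries and under 20% in all ESC and pESC libraries, lay between them with 53.4% in coding exons and 27.2% at gene starts. Within their gene, the 209 coding-exon members sat towards the 3' end, at a median of 81.8% of the way from start to end (interquartile range 59.6% to 92.2%). All coding-exon islands had a median of 66.8%.

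**Figure D1:**
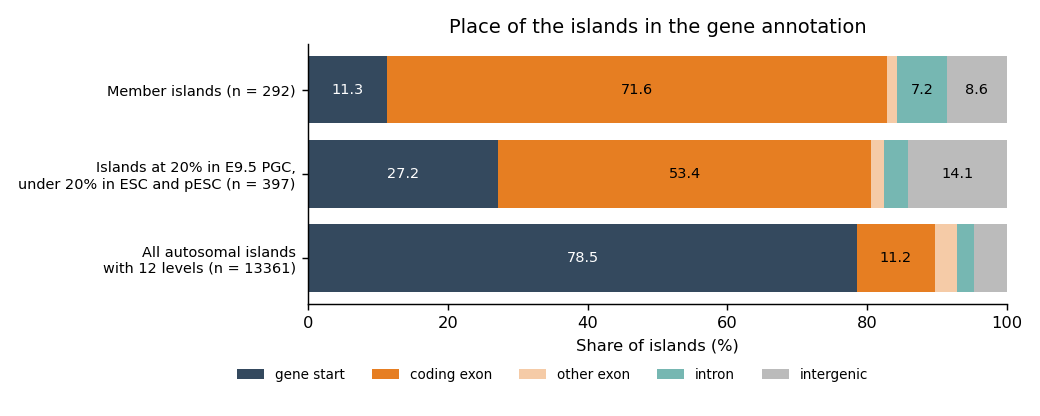
Share of islands (%, x axis) in each class of the gene annotation for the 292 members, for the 397 islands methylated in E9.5 PGC and not in ESC or pESC, and for all 13361 autosomal islands. Islands within 2000 bases of a gene start were classed there first. Coding exons away from gene starts hold 71.6% of the members, and gene starts hold 78.5% of all islands.

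Members were short and comparatively poor in CG. Their median length was 279.5 bases (201 to 1149), against 617 over all islands and 385 over the 397 islands of the second set. They held a median of 7.74 CG dinucleotides per 100 bases, and all islands held 10.2. Their median observed to expected CpG ratio was 0.799 against 0.880, and their GC content was 63.1% against 68.7%. The MspI site CCGG occurred a median of 2 times in a member and 8 times over all islands. Only 64 members held repeat-masked bases, and 1 of them, in an intron of Ndufaf2, was masked throughout. The members took the names of 276 genes, intergenic ones that of the nearest gene. Plec and Jag2 had 3 islands each, and 12 genes such as Tet3, Fat1, Lrp1, Spen, Celsr1 and Zfhx3 had 2 each. Within 50000 bases of another member lay 28 of the members. Every autosome held members, from 0.741% of the islands of chromosome 16 to 3.44% of those of chromosome 8.

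In E9.5 PGC the members were heavily methylated, with a median of 85.0% in replicate 1 and 85.3% in replicate 2. In E12.5 PGC the medians were 54.1% and 55.1%. The ESC libraries had medians of 59.97% and 35.7%, and the pESC libraries had medians of 53.0% and 42.4%. The ESC-PGCLC medians were 65.8% and 65.9%, and those of pESC-PGCLC were 60.3% and 60.1%. Over all 13361 islands the median was between 1.49% and 2.13% in every library. Replicates agreed closely except in stem cells. The median gap between the replicates at a member was 20.8 points in ESC and 8.01 points in pESC. In the other groups it was between 0.855 and 3.15 points. Replicate 1 was the higher library at 287 of 292 members in ESC and at 271 in pESC.

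**Figure D2:**
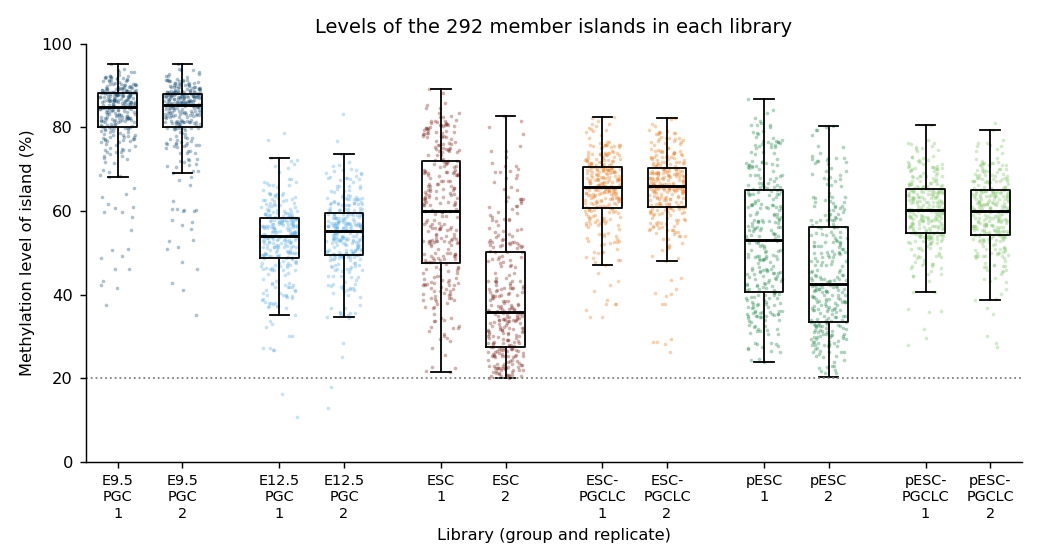
Methylation level (%, y axis) of each of the 292 members (points) in each of the 12 libraries (x axis), with the median and interquartile range as a box and whiskers to the furthest value within 1.5 times that range. The dotted line is the 20% threshold, which was applied to the E9.5 PGC, ESC and pESC libraries; ESC replicate 2 has a median of 35.7%, against 59.97% in replicate 1.

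ESC replicate 2 largely decided the membership. It had the lowest of the 6 selecting levels at 257 members, and without its condition 354 islands would have been members, whereas dropping any other single library gave 292 or 295. The members nearest above the threshold, by the lowest of the 6 levels, were islands of Med21 (20.03%), Gpr146 (20.1%) and Ndufaf2 (20.1%). Islands just below it included those in Trio (19.9%) and Neurl1b (19.9%).

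The level was lower in E12.5 PGC than in E9.5 PGC at all 292 members, with a median difference of -29.1 points and a range from -55.4 to -5.10. At E12.5 the members had a median of 65.0% of their E9.5 level (interquartile range 60.8% to 69.4%). The ratio was close to that of the second set, at 62.6%, and of the 23844 features of other classes that passed the same thresholds, at 64.3%. These other features are island shores, promoters, untranslated regions, exons and introns on the autosomes, and some overlap the members. A drop was nearly universal there too. The E12.5 PGC mean was at or above the E9.5 PGC mean at 25 of the 23844 other features and at 0 of the 397 islands of the second set. Both E12.5 PGC libraries were at 50% or more at 183 of 292 members (62.7%), at 22.9% of the second set and at 21.3% of the other features. The share was 12.4% over all features with 12 levels and 2.65% over all autosomal islands. These sets began at unlike levels, with E9.5 PGC means of 82.3% at members, 57.5% in the second set and 66.3% at the other features. The rule used the E9.5 levels, and no difference from E9.5 PGC was tested.

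**Figure D3:**
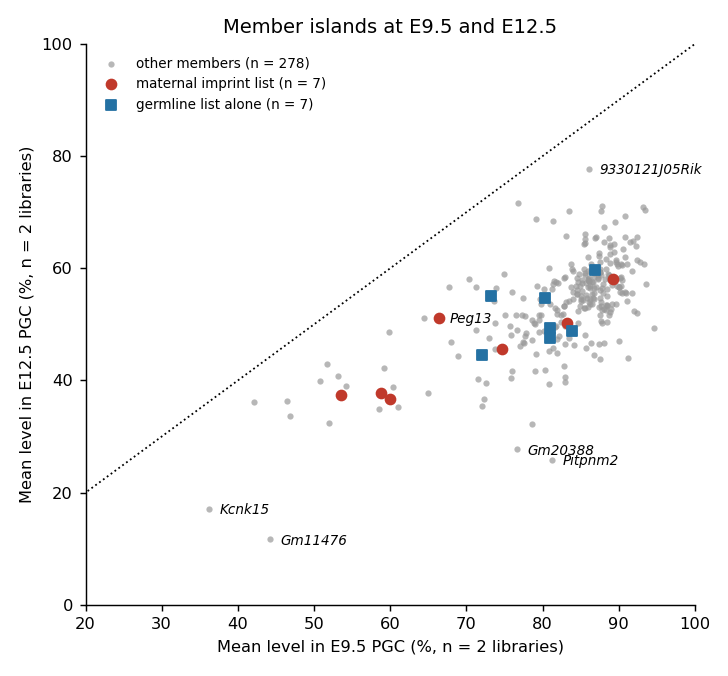
Mean level in E12.5 PGC (%, y axis, n = 2 libraries) against mean level in E9.5 PGC (%, x axis, n = 2 libraries) for the 292 members, with members at genes of the maternal imprint list (7) and of the germline list alone (7) marked. All points lie below the dotted line of equal levels, Pitpnm2 and Gm20388 lie far below the bulk, and the island near 9330121J05Rik is the highest.

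The member with the highest level in E12.5 PGC stayed near its E9.5 level. The intergenic island nearest to 9330121J05Rik (chr3:62158816-62159480) had levels of 78.7% and 76.8% in E12.5 PGC and 86.2% and 85.9% in E9.5 PGC. Its levels in the other 8 libraries ran from 74.3% to 81.5%, so the groups differed by little at this island. The next highest means in E12.5 PGC were at Ptov1 (71.7% ± 16.5, SD, n = 2), near D3Ertd751e (71.1% ± 0.952), at Fat1, an atypical cadherin (70.9% ± 1.32), and at Chst12, a chondroitin sulfotransferase (70.4% ± 1.17). The Ptov1 island (chr7:44863503-44863797) was at 60% and 83.3% in the E12.5 PGC replicates, and so its place in this order rests on replicate 2. After these came Gm32856 (70.2% ± 3.33), an intergenic island nearest to the zinc finger gene Zfp942 (70.2% ± 3.05) and Dyrk1b, a protein kinase (69.3% ± 2.18). Next were 3110070M22Rik (68.8% ± 0.918) and an intergenic island nearest to Resf1, a silencing factor of retroelements (68.5% ± 12). These neighbours in the order did not differ beyond their replicate spread. At Dyrk1b the levels were 25.6%, 27.3%, 26.4% and 28% in the 4 ESC and pESC libraries against 90.5% and 91.1% in E9.5 PGC. Other members had similar gaps, such as Ndufaf2, with means of 26.4% in ESC, 22.0% in pESC and 87.5% in E9.5 PGC. Tas1r1, a taste receptor subunit, had the second smallest drop from E9.5, from 42.1% ± 1.59 to 36.1% ± 0.891.

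Other members had low levels by E12.5. The lowest was Gm11476 (chr2:167597343-167597800), at 10.5% and 12.8% in E12.5 PGC and 42.2% and 46.2% in E9.5 PGC. Kcnk15, a potassium channel gene (chr2:163858196-163858728), was at 16.3% and 17.9% in E12.5 PGC after 37.4% and 35%. The coding exon island of Pitpnm2, a phosphatidylinositol transfer protein (chr5:124123525-124123735, shown above), was at 26.8% and 25% in E12.5 PGC after 81.6% and 81.0% in E9.5 PGC. That difference of -55.4 points was the largest of all members. Gm20388 (chr8:121468777-121469029), was at 27.2% and 28.3% after 77.7% and 75.6%, and Lnx2, a ubiquitin ligase, went from 91.2% ± 0.143 to 44.1% ± 8.15. The other low members at E12.5 were Map1a, a microtubule-associated protein (32.2% ± 3.15), Cckbr, the cholecystokinin B receptor (32.4% ± 7.41), Lhcgr, the luteinising hormone receptor (33.7% ± 1.16), Clstn2, a synaptic calsyntenin (35% ± 7.07), 1700041B01Rik (35.3% ± 0.290) and Lpar3, a lysophosphatidic acid receptor (35.5% ± 12.6). The second Pitpnm2 island in the same gene (chr5:124121334-124121579) was at 49.3% ± 4.97 in E12.5 PGC after 94.7% ± 0.841.

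The members at which pESC lay furthest above ESC were at imprinted genes. Imprinted control regions of the maternal class are methylated in the oocyte, and pESC have no paternal genome. Across the 292 members the median difference between pESC and ESC means was -0.481 points, with the mean of pESC higher at 126 members. pESC lay furthest above ESC at Peg13 (39.4 points), Nespas (34.5), Nap1l5 (31.2) and Inpp5f (24.0), and no other member had pESC above ESC by more than 10.6 points. These levels took part in the selection and are not tested.

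The island at Peg13, a noncoding RNA gene inside Trappc9 (chr15:72809538-72810123), was at 36.9% and 35.1% in ESC and at 77.8% and 73.1% in pESC. Its levels were 61.6% and 71.2% in E9.5 PGC, 54.8% and 47.6% in E12.5 PGC, 65.5% and 69.2% in ESC-PGCLC, and 72% and 67.0% in pESC-PGCLC. The pESC libraries lay above both ESC libraries, and the 4 PGCLC libraries lay close together. At Nap1l5, a retrogene inside Herc3 (chr6:58906724-58907147), the levels were 22.6% and 26.0% in ESC, 56.3% and 54.7% in pESC, 59.7% and 60.3% in E9.5 PGC, 32.3% and 41.2% in E12.5 PGC, 47.8% and 43.5% in ESC-PGCLC and 49.1% and 46.7% in pESC-PGCLC. As at Peg13, both pESC libraries lay above both ESC libraries, but here E9.5 PGC was the highest group. At the island inside Inpp5f, an inositol phosphatase gene (chr7:128687970-128688582), ESC had 27.2% and 25.2%, pESC 48.7% and 51.7%, E9.5 PGC 61% and 56.7%, E12.5 PGC 33.6% and 41.9%, ESC-PGCLC 47.1% and 44.0%, and pESC-PGCLC 47.4% and 48.6%. Here too the stem cell lines were apart and the PGCLC near each other.

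Nespas, the transcript antisense to Gnas (chr2:174297263-174297532), differed in the PGCLC as well. Its levels were 21.5% and 31.9% in ESC, 63.0% and 59.4% in pESC, 49.3% and 57.7% in E9.5 PGC and 38.0% and 36.9% in E12.5 PGC. ESC-PGCLC had 40.7% and 29.4%, whereas pESC-PGCLC had 57.7% and 49.9%. The pESC-PGCLC libraries lay above the ESC-PGCLC libraries by a mean of 18.7 points, which did not pass the test (limma, Benjamini-Hochberg adjusted p = 0.239).

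**Figure D4:**
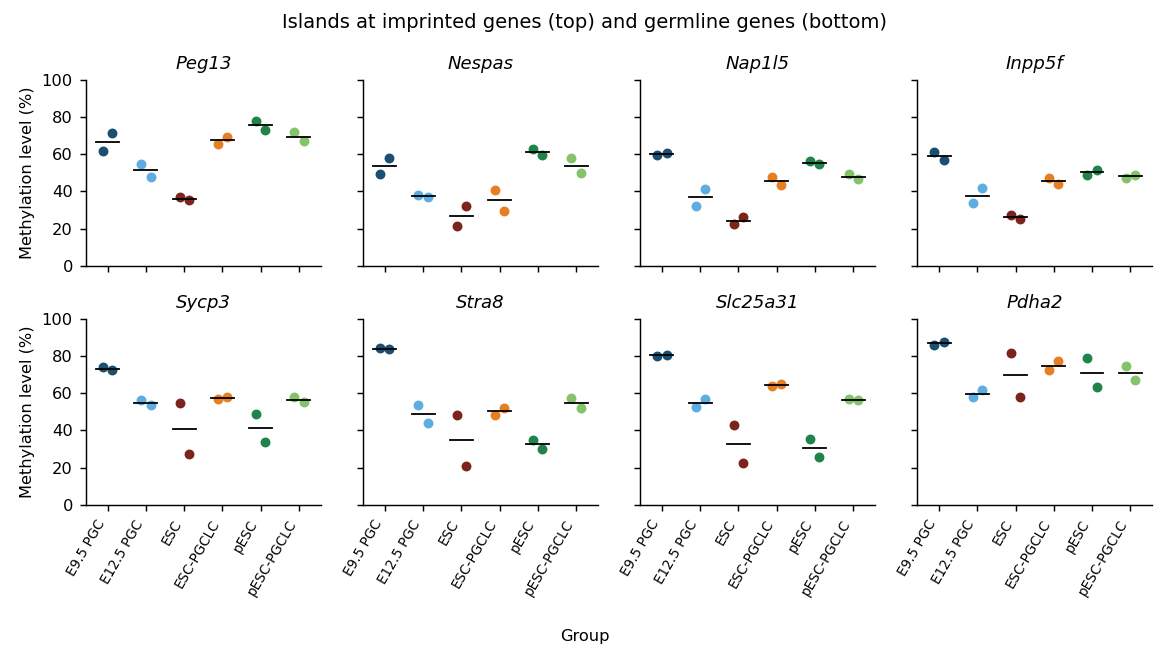
Methylation level (%, y axis) in each library (points) of each group (x axis), with the mean of 2 libraries as a bar, at 4 members at imprinted genes (top) and 4 at germline genes (bottom). In the top row the pESC libraries lie above the ESC libraries, as at Peg13 with 77.8% and 73.1% against 36.9% and 35.1%; in the bottom row the ranges of ESC and pESC overlap.

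The maternal imprint list held 40 genes, of which 30 had at least 1 autosomal island with all 12 levels, 41 islands in total. Of these, 24 were at 20% or more in both E9.5 PGC libraries, 17 in both pESC libraries and 7 in both ESC libraries, and those 7 were the members. Beside the 4 described, these were Fkbp6, which is also a germline gene, Trappc9 and Cdh15, where ESC and pESC were closer. The Trappc9 coding exon island (chr15:73058049-73058500) had 53.8% ± 17.3 in ESC and 53.6% ± 7.92 in pESC. The Cdh15 coding exon island (chr8:122864938-122865178), in the gene of muscle cadherin, had 71.9% ± 8.68 in ESC and 77.1% ± 2.65 in pESC. From the list of genes with methylation on the paternal copy, 1 of 10 islands was a member, an intergenic island 50709 bases from Zdbf2, its nearest gene. It had 72.7% ± 14.0 in ESC and 70.8% ± 6.31 in pESC.

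Islands at the starts of germline genes made up a further group. The germline list held 95 genes, 40 of them with a measured island and 46 islands in total. Of these, 24 were at 20% or more in both E9.5 PGC libraries and 8 were members. All 16 islands that were methylated in E9.5 PGC but not members had a level under 20% in ESC replicate 2, and 8 of them were under 20% in all 4 stem cell libraries. The 8 members were at Sycp3, a component of the synaptonemal complex, Stra8, which is needed to enter meiosis, Topaz1, Adad2 and Fkbp6, which act in male germ cells, and the testis genes Pdha2, Slc25a31 and Dpep3, which encode a pyruvate dehydrogenase subunit, an ADP/ATP carrier and a dipeptidase. All 8 lay within 2000 bases of the gene start.

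The Sycp3 island (chr10:88459495-88459991) had levels of 54.5% and 27.2% in ESC, 48.9% and 34.0% in pESC, 74.0% and 72.4% in E9.5 PGC, 56.1% and 53.9% in E12.5 PGC, 57.0% and 58.0% in ESC-PGCLC and 57.9% and 55.2% in pESC-PGCLC. The 6 libraries of E12.5 PGC and both kinds of PGCLC all lay between 53.9% and 58.0%. At Stra8 (chr6:34921372-34921757) the levels were 48.5% and 21% in ESC, 34.8% and 30.2% in pESC, 84.2% and 83.5% in E9.5 PGC, 53.5% and 44.1% in E12.5 PGC, 48.2% and 52.3% in ESC-PGCLC and 57.7% and 52.1% in pESC-PGCLC. The ranges of the last 3 groups overlapped or touched. Pdha2 was the most methylated of the 8 in stem cells, with 81.6% and 57.9% in ESC and 78.7% and 63.5% in pESC. The mean in E12.5 PGC ran from 44.6% ± 0.377 at Adad2 to 59.7% ± 2.75 at Pdha2, with Topaz1 (47.5% ± 1.97), Stra8 (48.8% ± 6.64), Dpep3 (49.4% ± 0.162), Fkbp6 (50.2% ± 0.30), Slc25a31 (54.6% ± 2.98) and Sycp3 (55.0% ± 1.57) between them. Neighbours from Topaz1 to Dpep3, and Slc25a31 and Sycp3, did not differ beyond their spread.

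Of 14 genes of the DNA methylation machinery with a measured island, only Tet3, which encodes an enzyme that oxidises methylated cytosine, held members. Its coding exon islands at chr6:83368002-83368474 and chr6:83404466-83404724 had 88.5% ± 0.244 and 89.1% ± 0.472 in E9.5 PGC and 56.3% ± 3.67 and 53.7% ± 8.02 in E12.5 PGC. Of 12 measured islands at clustered protocadherin genes, whose products give neurons their surface identity, 2 were members. The island in Pcdha7 was at 66.2% and 65.5% in E12.5 PGC and between 78.5% and 83.8% in the 6 selecting libraries, and that at Pcdhb20 was at 58.6% and 54.8% in E12.5 PGC. Of 302 islands at Zfp and related zinc finger genes, 5 were members (1.66%), and of 183 islands at homeobox and Pax genes none was, against 2.19% of all islands. At predicted or uncharacterised genes 27 of 1230 islands were members (2.20%). Apart from the imprinted genes, pESC lay furthest below ESC at Celsr2, a cadherin of planar cell polarity (25.9% ± 6.65 against 41.9% ± 9.29), near Epm2a, the laforin gene (51.2% ± 2.39 against 66.2% ± 11.4), and near Gm26848 (36.2% ± 3.38 against 49.2% ± 18.4).

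Whether the members had reached the E12.5 PGC level in induced cells was tested in the 6 libraries that the selection did not use. In ESC-PGCLC the members lay above E12.5 PGC by a median of 11.6 points, and the difference was positive at 280 of 292. It was also positive at 106721 of all 138361 features and at 22846 of the 23844 features of other classes past the same thresholds. By limma on the log-odds of the level over 138361 features of all classes, with a Benjamini-Hochberg adjusted p under 0.05 and a difference of at least 10 points, 157 members were called higher and 3 lower. Over all features 21.4% were called higher and 0.536% lower. Over the 23844 other features past the same thresholds 50.4% were called higher and 0.654% lower, close to the members' 53.8%. The median difference of those features was 10.8 points, and that of all features 2.97 points. After each library was centred on its median, 17 members were called higher and 4 lower, and the median member difference was 5.61 points, while the median over all features turned from 2.97 to -2.99 points. Leaving out 1 library changed the count of 160 to 5 (without E12.5 PGC replicate 1), 96 (without E12.5 PGC replicate 2), 43 (without ESC-PGCLC replicate 1) and 3 (without ESC-PGCLC replicate 2), while the median difference stayed between 11.3 and 12 points.

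The largest difference was at Gm20388, which had 63.8% and 65.5% in ESC-PGCLC against 27.2% and 28.3% in E12.5 PGC, 36.9 points higher (limma adjusted p = 0.00606). The Pitpnm2 island at chr5:124123525-124123735 had 59.5% and 60.4% against 26.8% and 25%, 34.0 points higher (limma adjusted p = 0.00616). Both calls held in all 14 alternative fits. They were followed by an intergenic island nearest to Gm43067 (28.5 points), Clstn2 (28 points) and Kif13a, a kinesin motor gene (26.2 points). The 3 members called lower were the exception. A coding exon island of Slc7a2, a transporter of cationic amino acids (chr8:40898982-40899274), had 37.7% and 28.5% in ESC-PGCLC against 61.8% and 51.9% in E12.5 PGC, a difference of -23.7 points (limma adjusted p = 0.0284). Cherp, which encodes a protein of calcium homeostasis in the endoplasmic reticulum (chr8:72461979-72462347), had 50.0% and 51.3% against 66.8% and 63.7%, a difference of -14.6 points (limma adjusted p = 0.0123). The island near Gm26848 had 57.0% and 51.3% against 62.4% and 68.9% (limma adjusted p = 0.0489) and was called in 4 of the 14 alternative fits, Slc7a2 in 7 and Cherp in 10.

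Among the lists, 4 of the 7 members at maternal imprint genes were called higher in ESC-PGCLC than in E12.5 PGC, at Peg13 (16.1 points, limma adjusted p = 0.0260), Trappc9 (14.4 points), Cdh15 (22.8 points) and Fkbp6 (15.0 points). Nap1l5 (8.86 points) and Inpp5f (7.81 points) did not pass, nor did Nespas, whose difference was -2.34 points (limma adjusted p = 0.732). The island near Zdbf2 was called, 14.4 points higher. Of the 8 germline members, Pdha2 (15.2 points), Slc25a31 (10.02 points), Fkbp6 and Dpep3 (15.3 points) were called higher, and Sycp3 (2.49 points), Stra8 (1.45 points), Topaz1 (8.53 points) and Adad2 (9.86 points, under the minimum difference) were not. Both Tet3 islands (13 and 21.7 points) and Pcdha7 (13.2 points) were called higher. These lists were chosen with earlier results of these data in view, and their counts stand beside the 53.8% of members called higher.

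**Figure D5:**
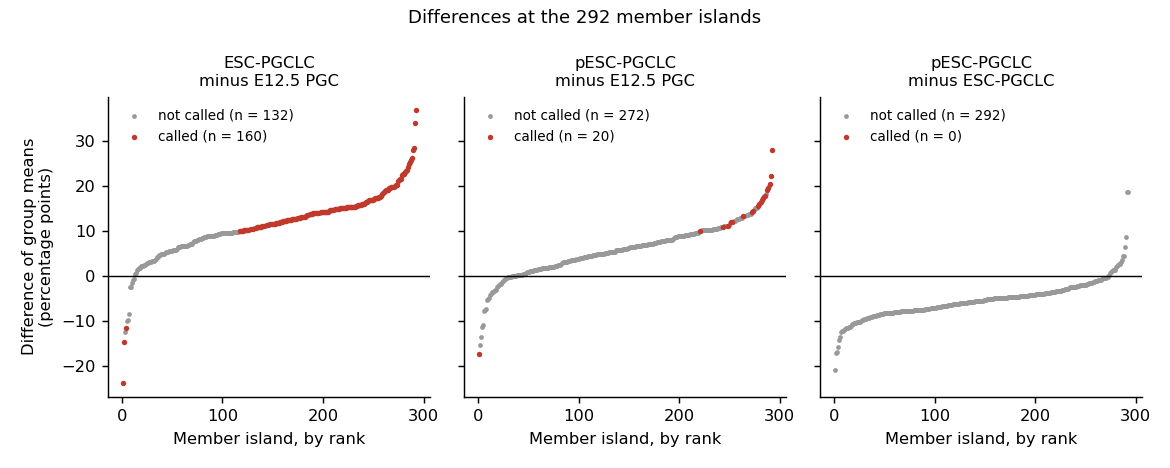
Difference of group means (percentage points, y axis) at the 292 members in rank order (x axis) for ESC-PGCLC against E12.5 PGC, pESC-PGCLC against E12.5 PGC and pESC-PGCLC against ESC-PGCLC, each with 2 libraries per group. Called members (160, 20 and 0) are red; most differences from E12.5 PGC are above 0, and most of those between the PGCLC are below 0.

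In pESC-PGCLC the members lay above E12.5 PGC by a median of 6.15 points, and the difference was positive at 259 of 292. It was also positive at 100386 of all 138361 features and at 22151 of the 23844 other features past the same thresholds. Called higher were 19 members (6.51%) and called lower 1. Over all features 3.24% were called higher and 0.155% lower, and over the other features past the same thresholds 7.93% and 0.0545%, with a median difference of 6.59 points. All 20 were also called in ESC-PGCLC, a contrast that shares the E12.5 PGC libraries. The largest differences were at Gm20388 (28.1 points, limma adjusted p = 0.0196), the lower Pitpnm2 island (22.3 points, limma adjusted p = 0.0231), Kif13a (20.6 points), Map1a (19.6 points) and the second Pitpnm2 island (19.11 points). The member called lower was Cherp, with 46.7% and 49.2% in pESC-PGCLC against 66.8% and 63.7% in E12.5 PGC, a difference of -17.3 points (limma adjusted p = 0.0379). No member of the imprint, germline, Tet3 or protocadherin groups was called. Peg13 was 18.2 points higher with a limma adjusted p of 0.0549, and Pcdha7 was 8.65 points higher with a limma adjusted p of 0.0510. Without any 1 of the 6 libraries, E12.5 PGC replicate 1 or 2, ESC-PGCLC replicate 1 or 2 or pESC-PGCLC replicate 1 or 2, no member was called, and the median difference then ran from 5.87 to 6.75 points.

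Between the 2 kinds of PGCLC no member was called by limma at these thresholds, while 123 of 292 had an unadjusted p under 0.05, as did 23141 of all 138361 features and 6630 of the 23844 other features past the same thresholds. Over all features 0.0354% were called, and over the other features past the same thresholds 0.0587%. The median member difference was -5.40 points, so that pESC-PGCLC lay lower, and 20 of 292 members had a positive difference. So had 39674 of all 138361 features and 2483 of the 23844 other features past the same thresholds. The other features past the same thresholds had a median of -4.22 points and all features one of -0.952 points. After centring the members' median was -3.44 points, and that of all features turned to 1.01 points. The highest positive differences were at Slc7a2 (18.7 points, limma adjusted p = 0.247) and Nespas, and the lowest was at Clstn2 (-20.8 points, limma adjusted p = 0.236).

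The methylated islands lay in methylated surroundings. A level in all 12 libraries was available for at least 1 of the flanking shores of 238 members, 322 shores in total. Their medians were 76.1% in E9.5 PGC, 49.3% in E12.5 PGC, 46.8% in ESC, 47.4% in pESC, 60.1% in ESC-PGCLC and 55.6% in pESC-PGCLC, and thus followed the islands. Over the shores of all islands the medians were between 4.43% and 6.20%. The shores of the second set had medians of 66.9% in E9.5 PGC, 42.6% in E12.5 PGC, 50.3% in ESC-PGCLC and 45.1% in pESC-PGCLC. Their medians in stem cells were 16.9% in ESC and 18.7% in pESC. In E9.5 PGC a shore lay 7.81 points below its member at the median, and 72 of 322 shores were above it. In ESC the median was 2.17 points lower, and 141 were above.

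Promoters of genes with a member in the gene body had low median levels. The 216 protein-coding genes with a member in the gene body included 192 with a promoter level in all 12 libraries. The median promoter level was 5.25% in ESC, 6.19% in pESC, 13% in E9.5 PGC, 6.63% in E12.5 PGC, 9.88% in ESC-PGCLC and 8.83% in pESC-PGCLC. It was under 10% in all 12 libraries at 83 of these genes (43.2%), compared with 53.3% of all 18456 promoters. At 38 (19.8%) it was 20% or more in all 6 selecting libraries, a share that is not given here for all promoters.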

How the data were processed

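RRBS libraries of 12 samples in 6 groups were analysed, grouped by their titles. The submitters' processing notes name Bismark 0.16.3, Bowtie2 and the build mm10, and per the study's methods the authors corrected levels for non-conversion. The deposited files give 1 methylation level per feature and library, as a fraction of methylated CG calls, with no read counts. The depth behind a level is therefore unknown, no interval was computed, and a planned count model gave way to its stated alternative for levels. The coverage minimum is not given in the sources used here.

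Members and gene lists were chosen with earlier results of these data known. Islands took the name of a gene starting within 2000 bases, else of an overlapping gene, else of the nearest (GENCODE M21). Named islands were all those at listed imprinted, germline, DNA methylation and protocadherin genes, the 10 highest and 10 lowest at E12.5, the 5 largest calls per direction and contrast, 3 islands on each side of the threshold (1 of which is not reported here) and 3 extremes of the untested differences. Sequences came from the RefSeq copy of GRCm38. Island starts, counted from 0 in the files, are given counted from 1.

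limma 3.58.1 in R 4.3.3 was fitted to log2((level + 0.01)/(1 - level + 0.01)) over the 138361 features with levels in the 6 libraries of E12.5 PGC, ESC-PGCLC and pESC-PGCLC, with Benjamini-Hochberg adjustment over all of them. The script was tested on simulated data. The study describes 2 biological replicates per group, and the p-values measure the spread between them. Alternatives covered the libraries and features in the fit, transformation, offset, minimum difference, centring, a replicate block, leaving out each library and the membership rule.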

Additional observations from a re-analysis of the deposited data

Results flagged for a closer look

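At 3 members the change from stem cells to PGCLC ran in opposite directions in the ESC and pESC backgrounds, in every library. Among the 292 members, both ESC-PGCLC libraries lay above both ESC libraries at 161. Both pESC-PGCLC libraries lay below both pESC libraries at 25. No such counts over all features are given here. At Peg13 both ESC-PGCLC libraries lay above both ESC libraries, by a mean of 31.3 points, while both pESC-PGCLC libraries lay below both pESC libraries, by a mean difference of -5.96 points, and the changes differed by 37.3 points. At Nap1l5 the changes were 21.3 and -7.56 points and differed by 28.9 points. At Inpp5f they were 19.3 and -2.19 points and differed by 21.5 points. The separation there was narrow, with pESC-PGCLC replicate 2 at 48.63% and pESC replicate 1 at 48.71%. The islands at Peg13, Nap1l5 and Inpp5f lie at genes of the maternal imprint list. The difference between the changes was not tested, because the stem cell levels took part in choosing the members. Groups of 2 libraries were too small for a check of outlying samples.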

How the results depend on the processing

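The count of members called in ESC-PGCLC against E12.5 PGC (160) was 29 with all 12 libraries in the fit, 82 with CpG islands fitted alone and 21 after centring, and it ran from 3 to 144 without 1 library. The count in pESC-PGCLC against E12.5 PGC (20) was 51 with E9.5 PGC added, 1 with all 12 libraries, 4 with islands alone, 44 on untransformed levels, 46 with an offset of 0.1 and 1 after centring, and 0 without any 1 library. In the groups of the fit (E12.5 PGC, ESC-PGCLC and pESC-PGCLC), replicate numbers did not pair the libraries. Deviations of libraries with the same number had correlations of -0.0190, -0.0181 and 0.05 there. In stem cells, which that check left out, replicate 1 was the higher library at 287 of 292 members in ESC and at 271 in pESC. With a replicate block the counts were 150 and 0. The cause of these shifts was not tested.

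The median difference of 11.6 points was 5.61 after centring, 10.5 with a membership threshold of 15% and 12.98 with 30%. That of 6.15 was 2.15 after centring, 5.07 at 15%, 7.54 at 30% and 5.34 when the second ESC library was left out of the rule, an alternative added after the data were seen. That of -5.40 was -5.25 as a mean, -3.44 after centring, -5.12 at 30%, -5.57 without the second ESC library and between -5.68 and -5.17 without 1 library. The share at a gene start was 7.53% within 1000 bases, the 183 members at 50% or more in E12.5 PGC were 37 at 60%, and TGCCGC was in 24.7% of whole islands. The other 55 summary values moved by less than the replicate spread, or 1.5 times for counts, and no direction at the members reversed, whereas after centring the median over all features turned from 2.97 to -2.99, from 1.30 to -2.69 and from -0.952 to 1.01 points in these contrasts, in the same order. Of the values of single named islands, 110 kept their side of the threshold and 86 lost their call. Read depth was not given, so the part of counting error in any level is unknown.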

Other observations

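Some imprinted islands outside the selection were also higher in pESC than in ESC. Of all 13361 autosomal islands, 8 were at 20% or more in both E9.5 PGC and both pESC libraries and under 20% in both ESC libraries, and all 8 were at genes of the maternal imprint list. They were chosen after their values were seen and for this pattern. Of the 8, the gap was widest at Airn and narrowest at Nnat, with means of 14.8% in ESC and 29.2% in pESC. At Airn, the noncoding transcript that silences Igf2r, the levels were 1.91% and 2.20% in ESC and 61.7% and 64.2% in pESC. At Peg10, a gene derived from a retrotransposon, they were 3.25% and 3.36% in ESC and 39.3% and 35.4% in pESC. The mean levels in PGCLC were closer, with 45.2% in ESC-PGCLC and 58.5% in pESC-PGCLC at Airn, and 35.1% and 41.7% at Peg10.

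Germline genes just outside the membership included Tuba3a, where ESC replicate 2 alone was under the threshold (18.5%) and E9.5 PGC had a mean of 85.2%, and Sycp1, Mael and Dazl, where ESC replicate 2 and pESC replicate 2 were both under it.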
